A study of Mus musculus with 28 samples.

Results

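The hippocampus of 3xTg mice given vehicle was compared with that of WT mice given vehicle by bulk RNA-seq, gene by gene. The comparison used 12 of the 28 libraries of the series, all from female mice: 4 from 3xTg-AD mice labelled VehN, 4 from 3xTg-AD mice labelled VehD and 4 from WT mice labelled Veh. The WT strain is written BL6129, and its genotype BL6/129. The mean of the VehN and VehD groups was set against the WT group over the 16369 of 24062 genes that passed a low count filter. The labels used here give neither the age of the mice, nor what each vehicle contained, nor which vehicle the WT mice received. The other 16 libraries are 4 of 3xTg and 4 of WT hippocampus with NAVI (navitoclax, also called ABT263, a BCL-2 family inhibitor) and 4 of 3xTg and 4 of WT hippocampus with DQ (dasatinib, a kinase inhibitor, with the flavonol quercetin). Both treatments are used to remove senescent cells. These libraries entered the same fit, and they give 2 further comparisons of 3xTg with WT that share no library with the vehicle comparison. Each genotype is 1 mouse line, so the transgenes and any other difference between the lines cannot be told apart. The labels do not say that the 4 libraries of a group are from separate animals, so the p-values measure the spread between these libraries.

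The 3xTg-AD line carries human APP and human MAPT with disease mutations, each expressed from a Thy1 promoter cassette that is active mainly in neurons. APP is the precursor of amyloid beta, which gamma-secretase releases, and MAPT encodes tau. Amyloid plaques and tau deposits form in the hippocampus of these mice. Microglia that touch plaques turn on a shared set of phagocytic, lysosomal and lipid genes, and astrocytes around plaques raise intermediate filament and complement genes.

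Library totals ran from 33947830 to 52320840 counts over the 12 libraries. Hippocampal, astrocyte, microglial and neuronal markers were present in all of them, and both hemoglobin genes in the marker list, Hbb-bs and Hba-a1, were listed at 0. A score over 16 thalamus and habenula genes (mean log2 CPM) stood above the midpoint of 3.657 in VehN libraries 1 and 2 and VehD libraries 1 and 4, and in 0 of the 4 WT libraries. Its group means were 3.78 in VehN, 3.38 in VehD and 3.09 in WT libraries. A choroid plexus score averaged 5.09 in VehN, 3.00 in VehD and 3.17 in WT libraries. The slope of each library's log2 deviation on GC content, per 10 percentage points of GC, averaged -0.13 in VehN, -0.10 in VehD and 0.09 in WT libraries. The thalamus score and the GC slope differed in mean between both 3xTg groups and WT, with overlapping ranges, while the mean choroid plexus score was above WT in VehN and below it in VehD. Their part in the results was not tested except where a fit with them is given below.

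**Figure D1:**
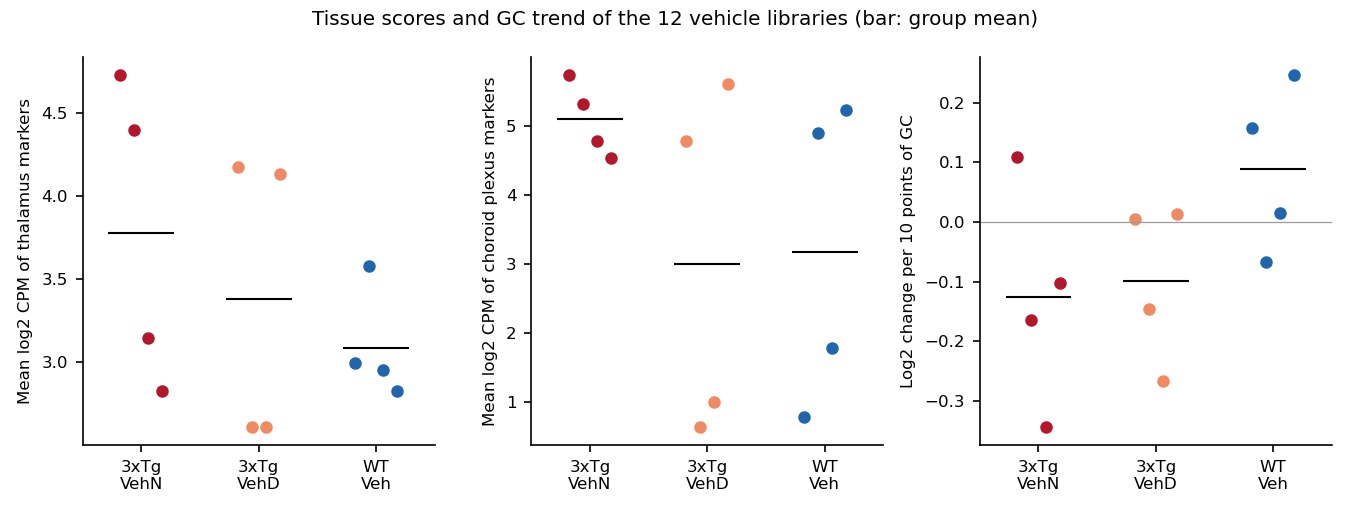
Thalamus and habenula score, choroid plexus score (both mean log2 CPM of the list) and GC slope (log2 per 10 percentage points of GC) of each of the 12 vehicle libraries, with group means as bars, for VehN, VehD and WT from left to right. The 4 libraries with a high thalamus score are all 3xTg, and the mean GC slope is below 0 in both 3xTg groups and 0.09 in WT.

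The genes of the model itself were examined first, since they check the labels. App had 2900, 2410, 2970 and 3460 CPM (counts per 1000000 of scaled library size) in the VehN libraries and 3430, 3570, 3200 and 2750 CPM in the VehD libraries, against 1800, 1570, 1610 and 1590 CPM in the WT libraries. Thy1, which lends its promoter to the transgenes, had 1600 to 2370 CPM in VehN and 1910 to 2600 CPM in VehD libraries, against 685 to 782 CPM in WT libraries. Neither gene's 3xTg and WT ranges overlapped, and over all 28 libraries of the series they did not overlap either, at 2410 to 3800 CPM in 16 3xTg libraries against 1470 to 1800 CPM in 12 WT libraries for App. App was higher by 0.91 and Thy1 by 1.52 on the log2 scale. The sources used here do not say if transgene reads were assigned to mouse App, Mapt and Thy1.

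Mapt, the mouse tau gene, had 645, 615, 652 and 671 CPM in VehN and 685, 713, 690 and 669 CPM in VehD libraries, against 596, 561, 649 and 632 CPM in WT libraries. The groups overlapped, and the log2 difference of 0.13 (SE 0.0486) did not pass the test (adjusted p = 0.0714, edgeR's quasi-likelihood test with Benjamini-Hochberg adjustment over all tested genes, as throughout). In the NAVI and DQ libraries Mapt was higher in 3xTg by 0.26 and 0.33 (edgeR adjusted p = 0.00806 and 0.00108).

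Among 16 tested genes of App processing, 2 rose and 2 fell, with a median log2 difference of 0.03. Over all genes 5.68% were called higher and 7.4% lower. Adam17, an alpha-secretase, averaged 29.6 ± 2.93 CPM in 3xTg (SD, n = 8) and 21.2 ± 2.22 CPM in WT libraries (SD, n = 4), a difference of 0.48 on the log2 scale (SE 0.0853, edgeR adjusted p = 0.000841). Ide, an amyloid-degrading protease, was higher by 0.18 and Psenen, a gamma-secretase subunit, was lower by 0.22 (log2 difference -0.22); these calls were lost in 5 and 8 of the 12 fits without 1 library, with the largest edgeR adjusted p of 0.156 without WT replicate 4 for Ide and of 0.137 without WT replicate 1 for Psenen.

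**Figure D2:**
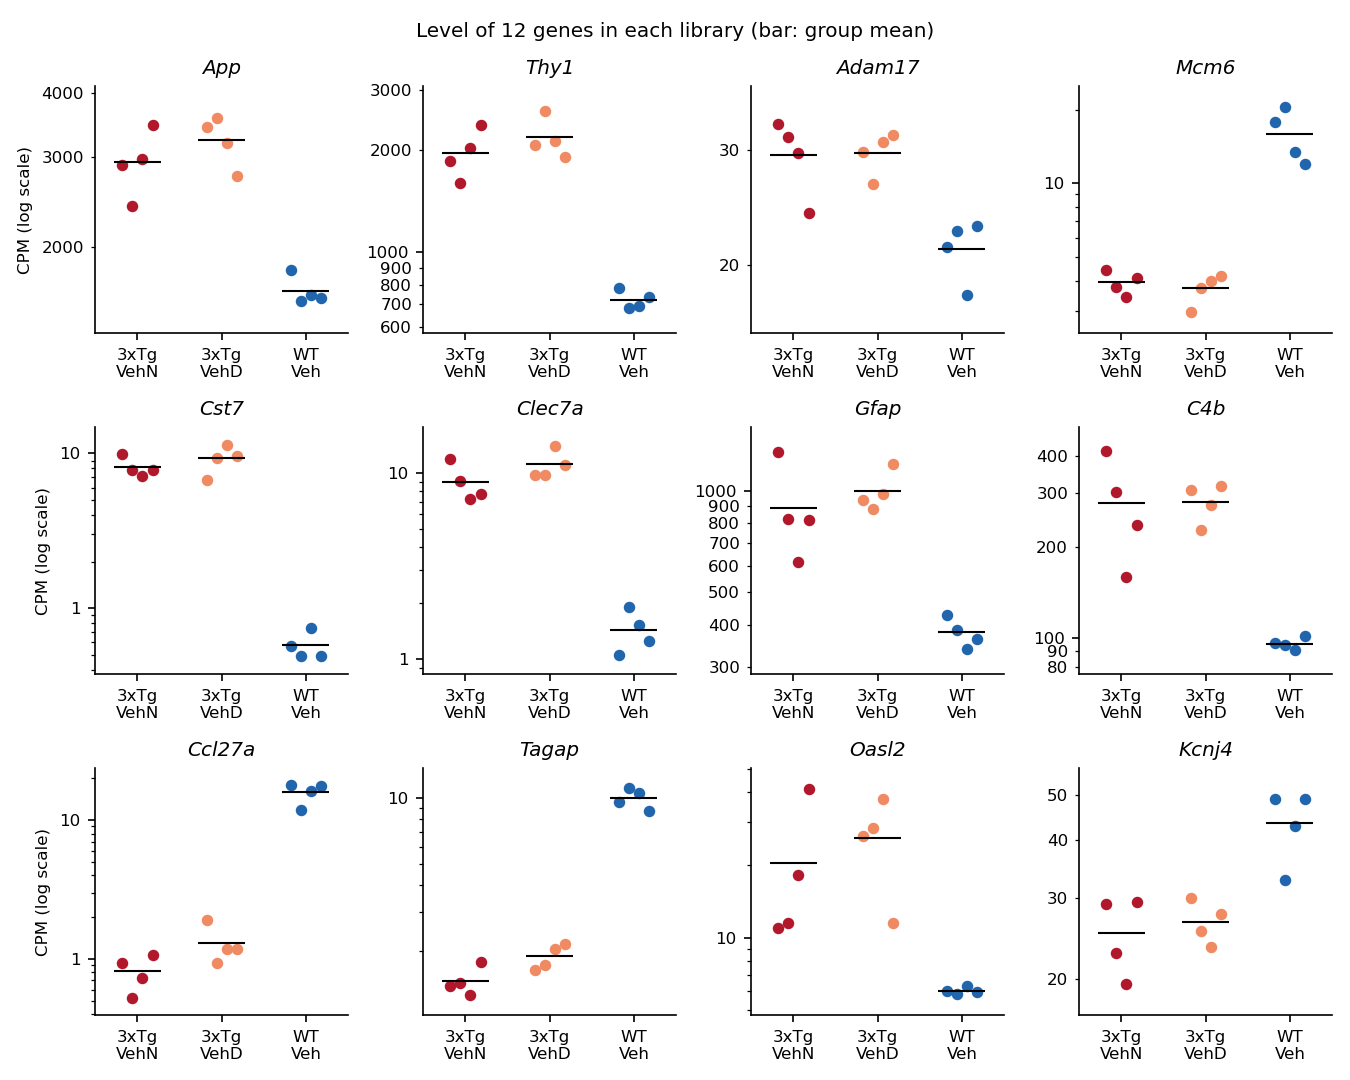
Level of 12 genes in each of the 12 vehicle libraries (CPM, log axis), with group means as bars, for VehN, VehD and WT from left to right. App, Thy1, Cst7 and Gfap are higher in all 8 3xTg libraries than in all 4 WT libraries, as is Adam17, and Mcm6 is lower in all 8.

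Over all genes, 2142 of 16369 tested genes (13.1%) differed between 3xTg and WT hippocampus with vehicle. Of these, 930 were higher (5.68% of tested genes) and 1212 lower (7.4%) in 3xTg. Most differences were small: the median fold of the called genes was 1.27, 963 differed by under 1.25-fold and 249 by at least 2-fold, 117 of them higher and 132 lower. The CPM ranges of the 8 3xTg and 4 WT libraries did not overlap for 935 genes (5.71%). The 2 vehicle groups of 3xTg mice did not differ from each other at any gene by edgeR, against 807 genes at an unadjusted p under 0.05, 2 genes by DESeq2 and 0 by limma-voom. The count of called genes depended on single libraries. Without VehN replicate 1 it was 3482, without VehD replicate 3 it was 1383, and without WT replicate 1 or 4 it was 967 or 873. It was 3961 without the libraries of high thalamus score, 623 with VehD as the only 3xTg group and 1118 when the 12 vehicle libraries were fitted alone. After removal of each library's GC trend it was 1548, of which 1119 were among the 2142.

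**Figure D3:**
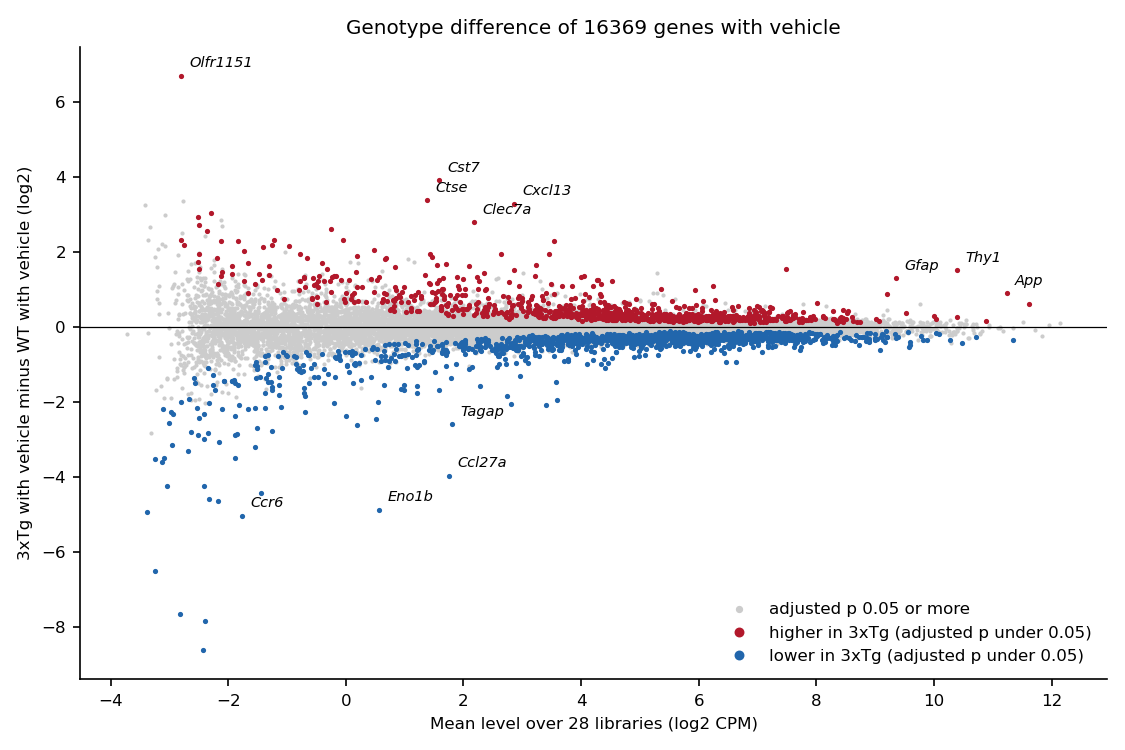
Difference between 3xTg and WT with vehicle (log2) for 16369 genes against their mean level over 28 libraries (log2 CPM), with called genes coloured by direction. The plot shows 930 genes called higher and 1212 called lower, most of them near 0, and a few genes with low counts at the extremes.

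Genes of plaque-associated microglia were higher in 3xTg hippocampus. Of 30 tested members, 18 rose and 0 fell, with a median log2 difference of 0.44 against 0.01 over all genes. The 18 rises are read against the 5.68% of all genes called higher. In bulk tissue, more cells of a type and more RNA per cell cannot be told apart. Cst7, which encodes the cysteine protease inhibitor cystatin F, had 9.89, 7.85, 7.1 and 7.86 CPM in VehN and 6.72, 9.41, 11.4 and 9.68 CPM in VehD libraries, against 0.568, 0.487, 0.743 and 0.492 CPM in WT libraries. Its ranges were far apart, and the log2 difference was 3.91 with vehicle (SE 0.363, edgeR adjusted p = 6.72e-08), 4.24 with NAVI and 3.63 with DQ. Cd84, an adhesion receptor of immune cells, averaged 9.95 ± 1.11 CPM in 3xTg (SD, n = 8) and 4.34 ± 0.843 CPM in WT libraries (SD, n = 4), and its ranges did not overlap. Cd84 was higher by 1.20 with vehicle (SE 0.145, edgeR adjusted p = 7.17e-06), by 0.94 with NAVI and by 1.15 with DQ. The number of rises in this list was 12 to 18 over the fits without 1 library, 12 without the libraries of high thalamus score and 11 with VehD alone. With NAVI 19 of the 30 rose and 0 fell, against backgrounds of 3.29% and 2.69% of tested genes, and with DQ 11 rose and 0 fell, against 1.68% and 1.37%.

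Genes that mark resting microglia were called at few members. Of 17 homeostatic genes, 2 rose, among them P2ry13, and 0 fell, against 5.68% and 7.4% of all genes. The median log2 difference was 0.17. P2ry13 lost its call in 7 of the 12 fits without 1 library (edgeR adjusted p up to 0.137, without WT replicate 1). The markers P2ry12, Tmem119 and Cx3cr1 overlapped between genotypes: P2ry12, a purinergic receptor, had 38.6 to 51.6 CPM in VehN and 39.2 to 52.9 CPM in VehD libraries, against 32.1 to 49.2 CPM in WT libraries. None of 8 genes of border macrophages passed the test in either direction.

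Receptors by which myeloid cells sense immune complexes and microbial or damage signals rose in part. Of 20 Fc and pattern recognition receptor genes, 7 rose and 0 fell (median log2 difference 0.36), against 5.68% and 7.4% of all genes. With NAVI 7 rose and with DQ 5 rose, against 3.29% and 1.68% of all genes. Cd14, the co-receptor of Tlr4, had 8.63, 9.21, 4.42 and 5.98 CPM in VehN and 8.02, 6.56, 6.58 and 8.66 CPM in VehD libraries, against 2.25, 2.27, 3.19 and 4.75 CPM in WT libraries. Its lowest 3xTg library lay below its highest WT library, and the log2 difference was 1.23 (SE 0.22, edgeR adjusted p = 0.000925). Fcer1g, the signalling chain that Fc receptors share, was higher by 0.65 (SE 0.125, edgeR adjusted p = 0.00167) and Tlr2 by 1.02 (SE 0.214, edgeR adjusted p = 0.00347), both with no overlap. Fcgr2b, the inhibitory IgG receptor, was higher by 1.79-fold, and its reads may be shared with other IgG receptor genes of close sequence.

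Further myeloid genes outside the lists, chosen after their values were seen, rose with no overlap between genotypes. Mpeg1, a pore-forming protein of phagocytes, had 94.9 to 135 CPM in the 8 3xTg libraries against 32.9 to 66.3 CPM in the 4 WT libraries (log2 difference 1.10, edgeR adjusted p = 0.000329). Cybb, the catalytic subunit of the phagocyte NADPH oxidase, was higher by 1.45 (edgeR adjusted p = 0.00178) and Cd180, a toll-like receptor homologue, by 0.85 (edgeR adjusted p = 0.00141). All 3 were called higher with NAVI and with DQ as well: Mpeg1 by 0.98 and 1.25, Cybb by 1.87 and 1.29, and Cd180 by 1.08 and 0.90 on the log2 scale. These were 3 genes picked from the 930, so they carry no support for the list counts.

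Reactive astrocyte genes formed the second glial set. Of 24 tested members 10 rose and 0 fell, against 5.68% and 7.4% of all genes. The median log2 difference was 0.56. Of the single differences 21 were positive and 3 negative, and they ran from -1.07 to 2.62. With NAVI 11 rose and with DQ 7 rose, against 3.29% and 1.68% of all genes. Gfap, the intermediate filament that defines reactive astrocytes, had 1300, 823, 615 and 816 CPM in VehN and 940, 880, 977 and 1200 CPM in VehD libraries, against 429, 387, 340 and 364 CPM in WT libraries. The lowest Gfap value in 3xTg, in VehN library 3, was above the highest WT value. VehN library 1 and VehD library 4, the 2 highest, are among the libraries of high thalamus score. Osmr, the oncostatin M receptor, had 21.6 to 32.9 CPM in the 8 3xTg libraries against 10.6 to 15.5 CPM in the 4 WT libraries, a difference of 1.11 on the log2 scale (SE 0.183, edgeR adjusted p = 0.000413). Without the libraries of high thalamus score 7 of the 24 rose, and 7 to 12 rose over the fits without 1 library.

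Genes that mark astrocytes in general moved less. Of 15 identity genes, 4 rose and 0 fell, against 5.68% and 7.4% of all genes, with a median log2 difference of 0.11. Aqp4, the water channel of astrocyte endfeet, had 396, 324, 285 and 289 CPM in VehN and 357, 271, 307 and 379 CPM in VehD libraries, against 208, 255, 199 and 176 CPM in WT libraries, with no overlap. Aqp4 was higher by 0.64 (SE 0.115, edgeR adjusted p = 0.000925). Slc1a3, a glutamate transporter, and Mlc1, a membrane protein of perivascular endfeet, rose by 1.24-fold and 1.18-fold, and Gja1 (connexin 43) by 1.14-fold. The Gja1 call was lost without WT replicate 4 (edgeR adjusted p = 0.0592).

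A set of 5 genes with glial or metabolic roles was chosen after their values were seen, each with no overlap between genotypes. Vim, an intermediate filament protein that is also 1 of the 10 rises of the reactive astrocyte list, had 56.0 to 112 CPM in the 8 3xTg libraries against 36.9 to 46.8 CPM in the 4 WT libraries. Chil1, a secreted chitinase-like protein made by astrocytes, had 21.7 to 35.2 CPM in 3xTg against 9.65 to 16.5 CPM in WT libraries and was higher by 1.14 (edgeR adjusted p = 0.00035). Aldh1l2, the mitochondrial enzyme of folate metabolism, had 13.5 to 19.2 CPM in 3xTg against 6.75 to 7.75 CPM in WT libraries, a difference of 1.14 on the log2 scale (SE 0.109, edgeR adjusted p = 1.11e-07). Slc1a5, a neutral amino acid transporter, was higher by 1.31, and Uggt2, a glycoprotein folding sensor of the endoplasmic reticulum, by 1.03 (edgeR adjusted p = 0.000566 and 5.59e-08). All 5 were called higher with NAVI and with DQ too.

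Of 19 tested complement genes, 6 rose and 0 fell (median log2 difference 0.33), against 5.68% and 7.4% of all genes. C4b, a component of the classical pathway, had 415, 304, 159 and 236 CPM in VehN and 309, 227, 274 and 318 CPM in VehD libraries, against 95.8, 94.4, 90.8 and 101 CPM in WT libraries. The 3xTg libraries spread widely and all stood above the WT libraries, which lay close together. Reads of C4b may be shared with its near copy C4a. C3ar1, the C3a receptor of microglia, was higher by 1.01 (SE 0.178, edgeR adjusted p = 0.000792) with NAVI at 0.91 and DQ at 0.58, the last not passing the test (edgeR adjusted p = 0.117). The count of complement rises was 3 without the libraries of high thalamus score and 4 to 6 over the fits without 1 library.

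Interferon-stimulated genes are switched on when type I interferon activates a transcription factor complex that binds a short promoter element. Of 29 tested genes of this list, 12 rose and 1 fell, against 5.68% and 7.4% of all genes. The rises numbered 8 to 13 over the fits without 1 library, and the median log2 difference was 0.53. Usp18, a protease that removes ISG15 and damps the interferon receptor, had 4.73, 5.22, 4.42 and 9.35 CPM in VehN and 8.76, 5.6, 8.4 and 4.01 CPM in VehD libraries, against 1.64, 2.04, 1.79 and 2.32 CPM in WT libraries. Oasl2, an oligoadenylate synthetase-like protein, had 11, 11.5, 18.2 and 41.2 CPM in VehN and 26.4, 28.4, 37.6 and 11.5 CPM in VehD libraries, against 5.98, 5.85, 6.29 and 5.94 CPM in WT libraries. No WT library reached any 3xTg library at either gene, and VehN library 4 was the highest of all 12 at both. Usp18 was higher by 1.69 (SE 0.341, edgeR adjusted p = 0.00255) and Oasl2 by 1.94 (SE 0.442, edgeR adjusted p = 0.00658).

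With NAVI 1 member rose, against 3.29% of all genes, and none of the 12 genes that rose with vehicle was called higher there. With DQ 5 rose, against 1.68% of all genes. The medians were 0.36 with NAVI and 0.71 with DQ. The NAVI and vehicle differences did not differ from each other at any of the 29 genes by edgeR (median difference -0.37), so a smaller rise with NAVI is not shown. Usp18 was higher by 0.83 with NAVI (edgeR adjusted p = 0.153) and by 1.38 with DQ (edgeR adjusted p = 0.0406). The 1 member that fell with vehicle was also called lower with NAVI and with DQ. Xaf1, an interferon-induced regulator of apoptosis, had 7.89, 7.78, 5.93 and 8.32 CPM in VehN and 10.8, 7.56, 8.97 and 8.01 CPM in VehD libraries, against 18.9, 26.7, 16.5 and 27.8 CPM in WT libraries. Xaf1 was lower by 1.47 with vehicle (log2 difference -1.47), and the differences were -1.85 with NAVI and -1.67 with DQ.

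The promoters of these genes are shown because the members rose together and the element is known. The GAAANNGAA motif was searched on both strands from 250 bases before to 50 bases after the start site in the RefSeq promoters of GRCm38.p6, and 19 of the 29 genes had a promoter in the table. It was present in 12 of the 19 (63.2%), against 2638 of 27025 promoters of all genes (9.76%), and in 3 of the 6 promoters of called-higher members. A match describes the letters only. Below, capitals mark the matches, which lie on the minus strand of the sequence as printed; 2 of them overlap in Ifit1. Ifit3 (chr19:34583279-34583578, plus strand) and Ifit1 (chr19:34640639-34640938, plus strand) encode RNA-binding antiviral proteins, and both rose.
Ifit3: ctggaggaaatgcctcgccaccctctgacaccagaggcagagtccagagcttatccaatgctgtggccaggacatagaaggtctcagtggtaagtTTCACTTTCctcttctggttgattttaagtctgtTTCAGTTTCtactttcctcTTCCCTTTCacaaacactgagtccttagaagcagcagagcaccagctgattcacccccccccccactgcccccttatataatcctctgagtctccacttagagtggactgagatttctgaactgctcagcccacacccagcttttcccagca
Ifit1: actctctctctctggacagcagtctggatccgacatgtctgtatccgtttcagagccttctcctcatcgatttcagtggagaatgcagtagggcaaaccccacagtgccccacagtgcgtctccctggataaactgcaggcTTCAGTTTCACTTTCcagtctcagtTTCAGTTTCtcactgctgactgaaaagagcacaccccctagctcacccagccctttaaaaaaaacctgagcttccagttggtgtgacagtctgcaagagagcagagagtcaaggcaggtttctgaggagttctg

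Ifit3 had 16.1, 19.9, 25.2 and 39.6 CPM in VehN and 30.7, 23.8, 34.4 and 16.9 CPM in VehD libraries, against 8.5, 11.9, 10 and 9.99 CPM in WT libraries. VehN library 4 was again the highest. The log2 difference was 1.35 with vehicle (SE 0.268, edgeR adjusted p = 0.00225), 0.56 with NAVI (edgeR adjusted p = 0.217) and 1.11 with DQ (edgeR adjusted p = 0.0376). Ifit1, named for its promoter after its values were seen, had 7.41, 12.3, 12 and 19.6 CPM in VehN and 17.3, 9.74, 17.6 and 7.37 CPM in VehD libraries, against 5.23, 4.41, 5.34 and 3.6 CPM in WT libraries. Its ranges did not overlap, and it was higher by 1.53 with vehicle (SE 0.369, edgeR adjusted p = 0.00959), with 0.42 for NAVI and 1.07 for DQ, neither past the test.

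Chemokines and their receptors steer leukocytes and microglia. Of 22 tested members 9 rose and 1 fell, against 5.68% and 7.4% of all genes. The rises numbered 5 to 9 over the fits without 1 library, and the median log2 difference was 0.67. Cxcl13, the B cell attractant, had 31.6, 19.6, 22.9 and 17 CPM in VehN and 13.7, 17.6, 29.5 and 24.2 CPM in VehD libraries, against 2.95, 1.88, 2.38 and 1.71 CPM in WT libraries. Ccr1, a receptor for inflammatory CC chemokines, averaged 3.50 ± 0.883 CPM in 3xTg (SD, n = 8) and 1.16 ± 0.269 CPM in WT libraries (SD, n = 4). Both were called higher in all 3 comparisons, Cxcl13 by 3.29 with vehicle, 3.48 with NAVI and 3.99 with DQ, and Ccr1 by 1.60, 1.91 and 1.67. Cxcl10, the interferon-induced attractant of T cells, was called (log2 difference 1.91, edgeR adjusted p = 0.0186), but its highest library, VehN replicate 4 at 5.43 CPM, stood far above the others, and the call was lost without WT replicate 1 or WT replicate 4 (edgeR adjusted p = 0.0613 and 0.0595).

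Genes of lymphocytes were near the limit of the depth. Only 7 of 15 T and NK cell genes passed the low count filter. Of these 2 rose and 0 fell, against 5.68% and 7.4% of all genes. Of the 7 differences 3 were positive and 4 negative, with a median log2 difference of -0.39. Members that pass the filter through 1 genotype alone are bound to differ, so these counts are a description. Cd8a, the T cell co-receptor, had 0.275, 0.386, 0.383 and 0.409 CPM in VehN and 0.0747, 0.436, 0.478 and 0.0982 CPM in VehD libraries, against 0.0454, 0.0464, 0.0218 and 0.029 CPM in WT libraries. The groups did not overlap, and since the WT libraries held few counts no fold or test is given. Cd79a and Cd79b, the signalling chains of the B cell receptor, were called lower, but only through 1 library: WT replicate 1 had 5.98 and 8.59 CPM. Without that library their log2 differences were 0.19 and 0.54, in the other direction, and neither passed the test. The untested B cell gene Ms4a1 had up to 409 counts in a WT library.

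Lysosomal genes rose in part. Of 30 tested members, 11 rose and 0 fell, against 5.68% and 7.4% of all genes. The rises numbered 8 to 11 over the fits without 1 library, and the median log2 difference was 0.24. Ctse, the endosomal protease cathepsin E, had 4.97 to 9 CPM in the 8 3xTg libraries against 0.255 to 0.985 CPM in the 4 WT libraries, and it led the list at 3.39 on the log2 scale. Ctss, the cathepsin of microglia, averaged 183 ± 23.5 CPM in 3xTg (SD, n = 8) and 125 ± 13.9 CPM in WT libraries (SD, n = 4). Asah1, the acid ceramidase, had 68.4 to 89.9 CPM in 3xTg libraries against 53.9 to 63.6 CPM in WT libraries and was higher by 0.42 with vehicle (SE 0.0726, edgeR adjusted p = 0.000756), with 0.14 for NAVI and 0.26 for DQ, neither past the test.

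Of 22 tested cholesterol synthesis genes, 10 rose and 0 fell, against 5.68% and 7.4% of all genes. The median log2 difference was 0.19. With NAVI 9 rose and with DQ 4 rose, against 3.29% and 1.68% of all genes, again with 0 falls. Hmgcs1, which makes the HMG-CoA of the pathway, had 389, 401, 455 and 425 CPM in VehN and 422, 465, 474 and 371 CPM in VehD libraries, against 330, 306, 373 and 266 CPM in WT libraries. VehD library 4 fell just below WT library 3, so the groups overlapped at 1 library each. Hmgcs1 was higher by 0.42 with vehicle (SE 0.0792, edgeR adjusted p = 0.00154), 0.39 with NAVI and 0.52 with DQ. Msmo1, the sterol C4 methyl oxidase, had 128 to 188 CPM in 3xTg libraries against 101 to 127 CPM in WT libraries. Acaca, the acetyl-CoA carboxylase of fatty acid synthesis, chosen after its values were seen, had 77.8 to 87.4 CPM in 3xTg against 62.5 to 73.9 CPM in WT libraries (log2 difference 0.27, edgeR adjusted p = 0.000295).

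The number of rises in the cholesterol list depended on the libraries, from 5 to 12 over the fits without 1 library and 7 after removal of the GC trend. The sterol-response motif TCACCCCAC was present in 1 of the 16 promoters of this list in the RefSeq table (6.25%), against 166 of 27025 promoters of all genes (0.614%), both strands searched. It is the Hmgcs1 promoter (chr13:119690101-119690400, plus strand), shown with the match in capitals.
Hmgcs1: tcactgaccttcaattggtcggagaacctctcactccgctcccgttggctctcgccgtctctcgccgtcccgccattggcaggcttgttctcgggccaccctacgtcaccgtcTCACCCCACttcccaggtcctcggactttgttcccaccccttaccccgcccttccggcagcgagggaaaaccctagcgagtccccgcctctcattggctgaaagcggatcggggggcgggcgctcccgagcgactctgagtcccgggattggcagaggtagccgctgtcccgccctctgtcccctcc

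Of 14 genes of lipid efflux and transport, 1 rose (Soat1, which esterifies cholesterol) and 2 fell (Abcg1, a sterol exporter, and Cyp46a1, the neuronal cholesterol hydroxylase), against 5.68% higher and 7.4% lower over all genes. Abcg1 had 80.5, 71.4, 67.1 and 73.4 CPM in VehN and 75.7, 68.3, 68.1 and 71.1 CPM in VehD libraries, against 91.2, 82.7, 84.9 and 86.6 CPM in WT libraries. Its groups did not overlap, and the log2 difference was -0.26 with vehicle (SE 0.0549, edgeR adjusted p = 0.00326), against 0.06 with NAVI. Those 2 differences differed from each other (edgeR adjusted p = 0.0388). Without WT replicate 4 neither Soat1 nor Cyp46a1 passed the test (edgeR adjusted p = 0.0592 and 0.0884), and Cyp46a1 lost its call in 5 more of the 12 fits without 1 library. Apoe, the main lipid carrier of astrocytes, had 600 to 1180 CPM in 3xTg libraries against 631 to 876 CPM in WT libraries, and its log2 difference of 0.14 did not pass the test (edgeR adjusted p = 0.529) and was -0.10 without the libraries of high thalamus score. With NAVI Apoe was called higher in 3xTg, by 0.79 (edgeR adjusted p = 0.00911), and 3 of the 14 list members rose and 0 fell, against 3.29% and 2.69% of all genes.

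Myelin genes rose in part, and some of the libraries highest in them also had a high thalamus score. Of 14 tested members 6 rose and 0 fell, against 5.68% and 7.4% of all genes, with a median log2 difference of 0.34. Trf, the iron carrier transferrin of oligodendrocytes, had 1180, 907, 475 and 587 CPM in VehN and 835, 527, 724 and 936 CPM in VehD libraries, against 387, 417, 423 and 444 CPM in WT libraries. The groups did not overlap, and the 4 highest 3xTg values were 1180 and 907 CPM in VehN libraries 1 and 2 and 835 and 936 CPM in VehD libraries 1 and 4, the 4 libraries of high thalamus score. Without the libraries of high thalamus score, 1 of the 14 genes rose and the median was 0.10. With the thalamus and choroid plexus scores of all libraries as covariates, 6 rose and 0 fell. Over the fits without 1 library 2 to 6 rose. The thalamus list itself had a median of 0.85 with all libraries and -0.29 without those libraries, with 0 of 16 genes called in the fit of all libraries.

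**Figure D4:**
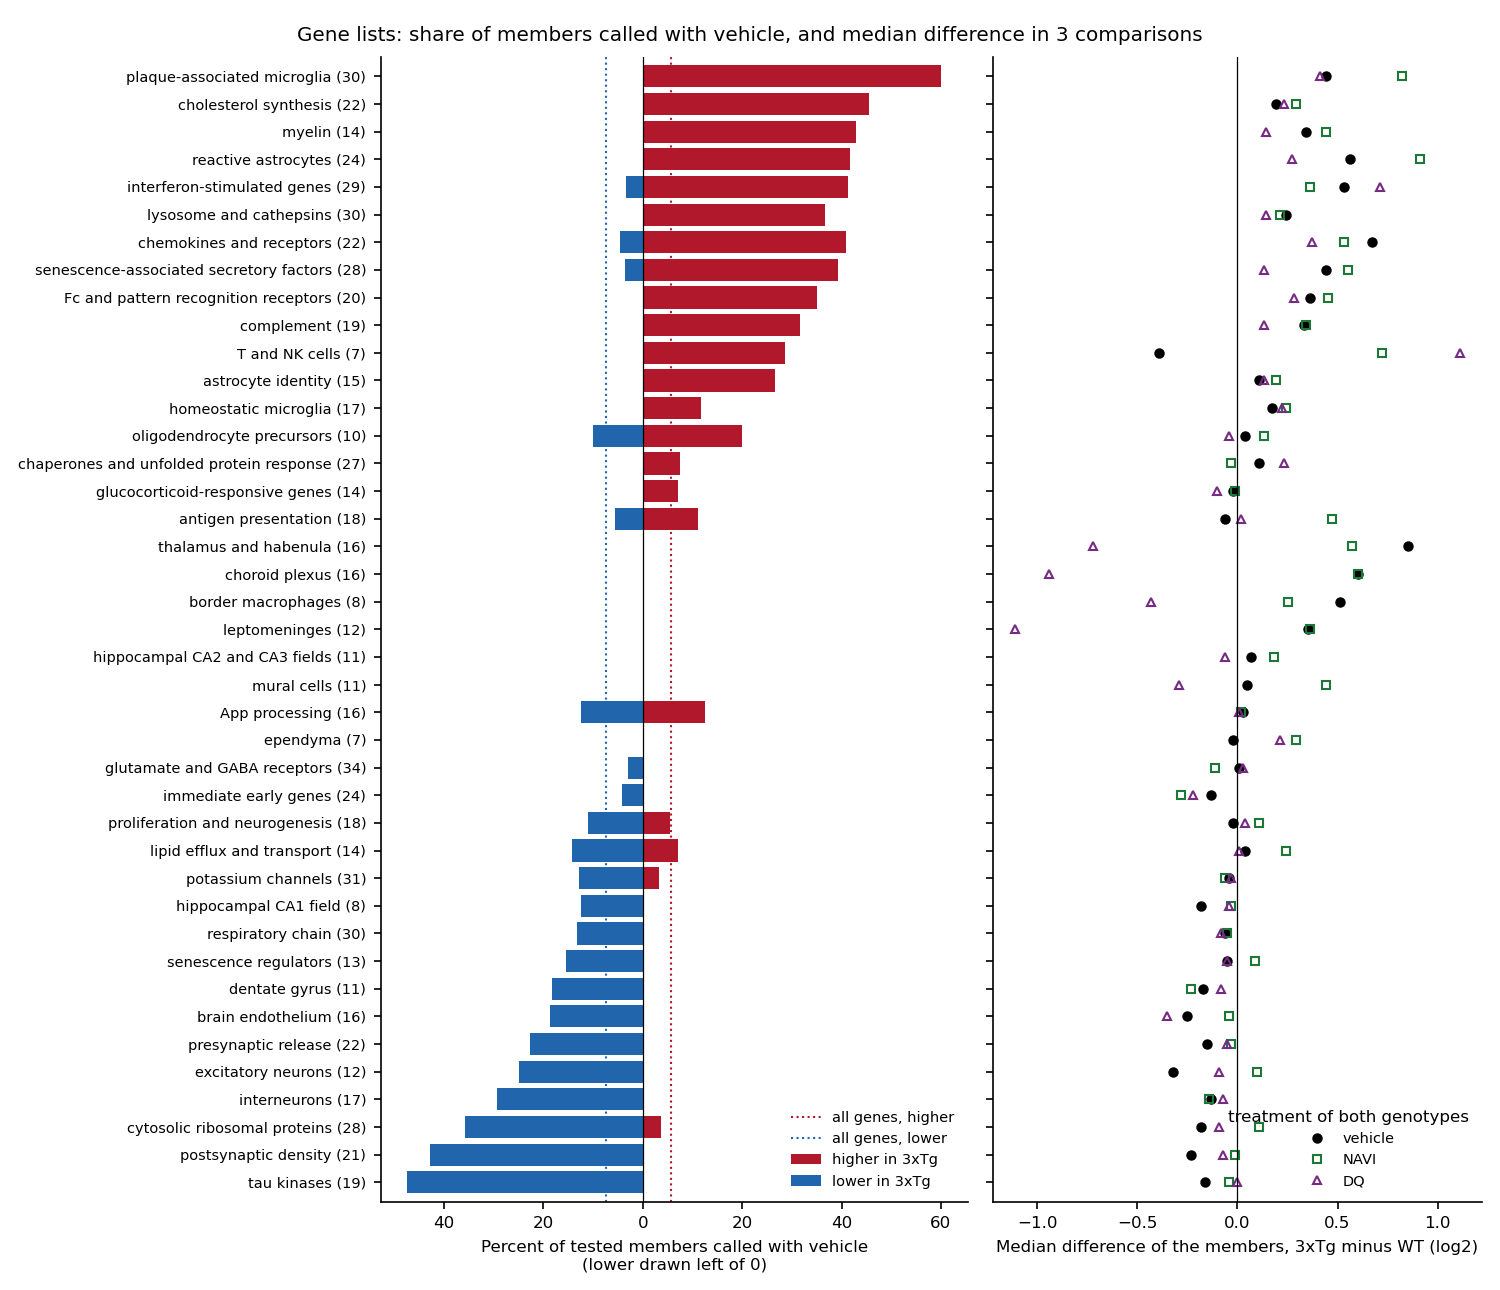
Left, share of the tested members of each gene list called higher or lower in 3xTg with vehicle (percent); right, median difference of the members, 3xTg minus WT (log2), with vehicle, NAVI and DQ. The medians with vehicle include 0.44 for plaque-associated microglia and 0.56 for reactive astrocytes, and the postsynaptic list lies to the left with vehicle at -0.23.

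Neuronal genes were lower in part, by small amounts. Of 21 tested postsynaptic density genes, 9 fell and 0 rose (median log2 difference -0.23). Of 22 genes of presynaptic release 5 fell and 0 rose. Over all genes 7.4% were called lower and 5.68% higher. Nlgn2, the adhesion protein of inhibitory synapses, had 170, 155, 162 and 173 CPM in VehN and 186, 183, 166 and 180 CPM in VehD libraries, against 209, 200, 210 and 216 CPM in WT libraries. Its groups did not overlap, and the log2 difference was -0.28 (SE 0.0484, edgeR adjusted p = 0.000619). Kcnj4, an inward rectifier potassium channel of forebrain neurons, had 29.1, 22.8, 19.5 and 29.4 CPM in VehN and 30, 25.4, 23.5 and 27.7 CPM in VehD libraries, against 49.1, 32.7, 42.9 and 49 CPM in WT libraries, and differed by -0.74 on the log2 scale (SE 0.133, edgeR adjusted p = 0.000888). WT library 2 was the lowest WT library at both genes. Of 34 genes of glutamate and GABA receptors 1 fell, Grin2d, against 7.4% of all genes. Its call was lost in 5 of the 12 fits without 1 library (edgeR adjusted p up to 0.121, without WT replicate 4). With NAVI and with DQ, 0 of the 21 postsynaptic genes passed the test.

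The mean GC slope differed between the same groups. Over single libraries it ran from -0.34 to 0.11 in VehN, from -0.27 to 0.01 in VehD and from -0.07 to 0.25 in WT. Whether GC content has a part in these falls was not tested beyond the following fit. After removal of each library's GC trend 4 of the 21 postsynaptic and 3 of the 22 presynaptic genes fell, and with VehD as the only 3xTg group 2 and 0 fell. Over the fits without 1 library the falls ran from 3 to 10 and from 1 to 12. With NAVI the mean GC slope was 0.15 in 3xTg and -0.06 in WT libraries. The difference between genotypes with NAVI differed from that with vehicle at 8 of the 21 postsynaptic genes, and at 1743 of all tested genes (10.6%). For Kcnj4 the log2 difference was 0.28 with NAVI, and the change of 1.02 relative to vehicle passed the test (edgeR adjusted p = 0.0388).

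Of 19 tested genes of tau kinases and their activators, 9 fell and 0 rose, against 7.4% and 5.68% of all genes. The other 10 did not pass the test, and the median log2 difference was -0.16. Cdk5r1, the p35 activator of the tau kinase Cdk5, had 233, 215, 221 and 225 CPM in VehN and 231, 229, 233 and 227 CPM in VehD libraries, against 247, 251, 259 and 255 CPM in WT libraries. Cdk5r2, the p39 activator, had 69.7 to 79.8 CPM in 3xTg libraries against 82.8 to 113 CPM in WT libraries. Neither pair of groups overlapped, and the log2 differences were -0.16 (SE 0.0348, edgeR adjusted p = 0.00528) for Cdk5r1 and -0.35 (SE 0.0612, edgeR adjusted p = 0.000841) for Cdk5r2. Gsk3a and Mark2, which phosphorylate tau, were lower by 1.19-fold and 1.23-fold. After removal of the GC trend 2 of the 19 fell, with VehD alone 1 fell, and with NAVI and DQ 0 passed the test. Over the fits without 1 library 5 to 10 fell.

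Among genes that mark hippocampal fields, the dentate gyrus list had 2 falls of 11, C1ql2 and Lct, against 7.4% of all genes called lower. C1ql2, a synaptic organiser secreted by mossy fibres of granule cells, had 14.5, 10.7, 8.24 and 11.9 CPM in VehN and 12.3, 8.3, 9.94 and 10.4 CPM in VehD libraries, against 16, 24, 17.5 and 22.6 CPM in WT libraries. The log2 difference was -0.89 with vehicle (SE 0.152, edgeR adjusted p = 0.00057), -0.81 with NAVI and -0.78 with DQ, called in all 3. Prox1, the transcription factor of granule cells, overlapped between genotypes at 48.4 to 72.6 CPM in VehN and 46.2 to 65 CPM in VehD libraries, against 40.6 to 69.9 CPM in WT libraries. In the CA1 list 1 of 8 genes fell, and in the list for CA2 and CA3 0 of 11 passed the test.

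Of 17 interneuron genes 5 fell and 0 rose, against 7.4% and 5.68% of all genes. Among the falls were Lamp5 and the peptide genes Sst, Cort and Npy. Lamp5, a marker of neurogliaform cells, had 41.9 to 63.8 CPM in 3xTg libraries against 66.8 to 83.4 CPM in WT libraries, a log2 difference of -0.56 (edgeR adjusted p = 0.0145), and -0.65 with NAVI but -0.07 with DQ. The 5 falls became 1 after removal of the GC trend and 0 with VehD alone, and ran from 0 to 6 over the fits without 1 library. None of the 4 named genes passed the test without WT replicate 4, where the edgeR adjusted p of Lamp5 was 0.0694. Vgf, a secreted neuropeptide precursor induced by activity, had 31.5 to 42.0 CPM in 3xTg libraries against 47.3 to 56.7 CPM in WT libraries. It was the 1 gene of 24 immediate early genes that fell, against 7.4% of all genes (log2 difference -0.49, SE 0.0804, edgeR adjusted p = 0.000419).

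Of 28 cytosolic ribosomal protein genes 10 fell and 1 rose, against 7.4% and 5.68% of all genes, with a median log2 difference of -0.18. Rpl37 had 102, 84, 77.6 and 91.3 CPM in VehN and 92.9, 96.2, 88.9 and 100 CPM in VehD libraries, against 133, 102, 107 and 132 CPM in WT libraries. VehN library 1 and WT library 2 had the same value to 3 digits, so the groups met. The number of falls ran from 2 to 17 over the fits without 1 library. It was 1 with VehD alone and 15 after removal of the GC trend. With NAVI 0 of the 28 fell (median 0.11), and the NAVI difference was above the vehicle difference at 11 of the 28 genes and below it at 1, against 10.6% of all genes in either direction. Reads of these genes can be shared with pseudogene copies. Of 30 respiratory chain genes 4 fell (1 to 8 over the fits without 1 library) and 0 rose, against 7.4% and 5.68% of all genes. Cox7a2, a subunit of cytochrome oxidase, had 162 to 178 CPM in 3xTg libraries against 192 to 197 CPM in WT libraries, and was lower in all 3 comparisons, by 0.20 with vehicle, 0.20 with NAVI and 0.18 with DQ (log2 differences -0.20, -0.20 and -0.18).

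Among regulators of senescence, 0 of 13 tested members rose and 2 fell, Cdkn2d and E2f1, against 5.68% of all genes called higher and 7.4% called lower; these calls were lost in 3 and 9 of the 12 fits without 1 library, with the largest edgeR adjusted p without WT replicate 1 (0.106 and 0.183). Of 28 tested secretory factors associated with senescence 11 rose (7 to 12 over the fits without 1 library) and 1 fell, with a median log2 difference of 0.44; several are chemokines also counted above. Igfbp5, an insulin-like growth factor binding protein, had 299 to 391 CPM in 3xTg libraries against 237 to 274 CPM in WT libraries. Igfbp4, of the same family, was the fall, at 48.4 to 69.3 CPM in 3xTg libraries against 67.6 to 89.5 CPM in WT libraries, which overlapped. Of 18 genes of proliferation and neurogenesis 1 rose (Mcm4) and 2 fell (Mcm6 and Pcna), against the same 5.68% and 7.4% of all genes. The 2 falls passed the test in all 12 fits without 1 library, and the Mcm4 call was lost in 6 (edgeR adjusted p up to 0.127, without WT replicate 4).

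Genes of brain endothelium fell at 3 of 16 members, against 7.4% of all genes: Cldn5, Esam and Ly6c1. The calls of Esam and Ly6c1 were lost without WT replicate 1 or WT replicate 4 (edgeR adjusted p up to 0.092 and 0.107). Cldn5, the tight junction protein of brain capillaries, had 13.7, 13.3, 7.94 and 9.95 CPM in VehN and 12.7, 9.17, 7.87 and 14.8 CPM in VehD libraries, against 25, 17.1, 15.8 and 24.8 CPM in WT libraries. Its groups did not overlap, and the log2 difference was -0.89 (SE 0.182, edgeR adjusted p = 0.00293), against 0.22 with NAVI and -0.52 with DQ. The NAVI difference differed from that with vehicle by 1.11 (edgeR adjusted p = 0.0388). Without the libraries of high thalamus score 9 of the 16 fell. None of 11 mural cell, 12 leptomeningeal, 16 choroid plexus and 7 ependymal genes passed the test. Among 14 glucocorticoid-responsive genes, 1 rose, against 5.68% of all genes: Pdk4, which restrains pyruvate oxidation. It had 46.3, 63.5, 40.6 and 40.8 CPM in VehN and 30.8, 29.5, 34.3 and 27.4 CPM in VehD libraries, against 21.9 to 23.4 CPM in WT libraries, and with VehD as the only 3xTg group it did not pass the test (edgeR adjusted p = 0.162).

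The genotype difference was also measured in the NAVI and DQ libraries. These are not among the 12 libraries compared with vehicle. They entered the same fit of all 28 libraries, so the 3 comparisons share 1 estimate of the spread. With NAVI 979 genes (5.98%) and with DQ 500 genes (3.05%) were called. Of the 930 genes higher with vehicle, 64% were also positive with NAVI and 95.5% with DQ, and 187 and 198 were called higher. Of the 1212 lower genes, 49.8% were also negative with NAVI and 93.2% with DQ, and 129 and 128 were called lower. The NAVI difference differed from the vehicle difference at 640 of the 2142 genes, and at 1743 of all tested genes (10.6%). The 2142 were chosen by the vehicle difference that this contrast subtracts, so their higher share is built in and is a description. The mean GC slope was 0.15 in 3xTg and -0.06 in WT libraries with NAVI, and -0.04 and 0.10 with DQ. Its part in these shares was not tested. The DQ difference differed from the vehicle difference at 0 of the tested genes by edgeR, with 1029 at an unadjusted p under 0.05, 5 by DESeq2 and 0 by limma-voom.

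A core of 157 genes was called in the same direction in all 3 comparisons, 94 higher and 63 lower, which is 7.33% of the genes called with vehicle. For 80 of them, 50 higher and 30 lower, no library of the 16 3xTg overlapped any of the 12 WT libraries of the series. The core was chosen by differences between these same libraries, so this count is a description. The share of all tested genes that stayed apart in this way was not counted. The core held 157 of the 16369 tested genes. From the gene lists, 10 of 30 plaque-associated microglial and 6 of 24 reactive astrocyte genes belong to it. It also held 1 of 29 interferon-stimulated genes, which is Xaf1, and 0 of 21 postsynaptic genes. These last 2 counts are too small to tell apart from the share over all genes. Clec7a, the beta-glucan receptor dectin-1 of plaque-associated microglia, had 6.89 to 17.3 CPM over the 16 3xTg libraries against 1.03 to 2.40 CPM over the 12 WT libraries. The log2 differences of Clec7a were 2.80 with vehicle, 2.59 with NAVI and 2.65 with DQ.

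**Figure D5:**
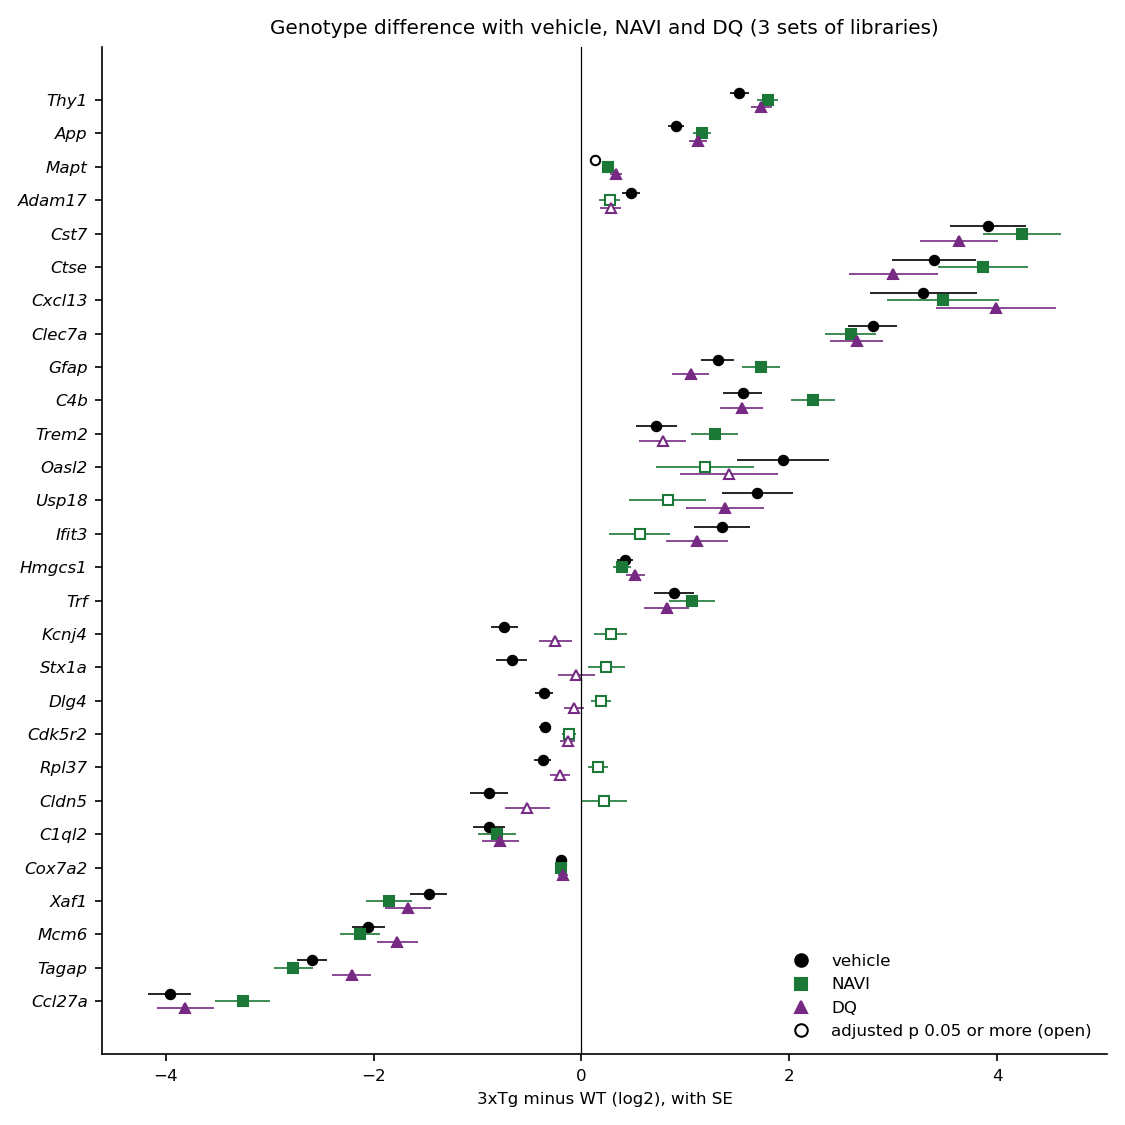
Difference between 3xTg and WT (log2, with SE as bars) with vehicle, NAVI and DQ for selected genes. Each comparison is between its own libraries, and the SE comes from the fit of all 28 libraries. Cst7, Clec7a, Thy1 and Mcm6 lie at similar values in all 3, while Kcnj4 is at -0.74 with vehicle and 0.28 with NAVI.

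Several core genes with large falls lie outside the glial lists. Mcm6, a subunit of the replicative helicase, had 4.43, 3.77, 3.42 and 4.11 CPM in VehN and 2.99, 3.75, 4 and 4.16 CPM in VehD libraries, against 17.8, 20.4, 13.4 and 12 CPM in WT libraries, a difference of -2.05 on the log2 scale (SE 0.156, edgeR adjusted p = 1.78e-09). Ccl27a, a chemokine gene with near-identical copies, had 0.522 to 1.89 CPM in 3xTg libraries against 11.9 to 17.9 CPM in WT libraries; the counting could split its reads among the copies. Both stayed apart over all 28 libraries, at 2.99 to 4.85 CPM in 3xTg against 8.77 to 20.4 CPM in WT for Mcm6. The log2 differences of Mcm6 with NAVI and DQ were -2.13 and -1.77.

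A set of 4 genes was almost without counts in 1 genotype, so no fold is given. The unannotated transcript 4933409K07Rik had 0 to 1 counts in the 16 3xTg libraries against 21 to 84 counts in the 12 WT libraries. Ccr6, a chemokine receptor of lymphocytes, had 0 to 4 counts in 3xTg against 27 to 115 counts in WT libraries. Prss41, a serine protease gene chosen after its values were seen, had 0 to 8 counts in 3xTg against 24 to 71 counts in WT libraries. The olfactory receptor gene Olfr1151, also chosen after its values were seen, had 5 to 31 counts in 3xTg libraries and 0 counts in every WT library. In each case the genotypes were separate in all 28 libraries. Eno1b, a retrogene close to Eno1, differed among WT libraries: it had 0.205 to 0.528 CPM in the 8 3xTg libraries, against 0.386, 9.9, 12.1 and 18.3 CPM in the 4 WT libraries.

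The share of genes called varied between parts of the genome, which is described here with no test. Genes were placed with the RefSeq annotation of GRCm38, which held 15464 of the tested genes, and counted in windows of 10 Mb with at least 20 tested genes. Over 236 windows the median share called was 11.9%. The first 10 Mb of chromosome 17 had the highest share, 17 of 38 genes (44.7%), 7 higher and 10 lower, and 6 of these belong to the core. Tagap, a GTPase-activating protein of T cells, had 1.26 to 2.16 CPM in 3xTg libraries against 8.72 to 11.1 CPM in WT libraries. Its close paralog Tagap1, chosen after its values were seen, went the other way, at 26.2 to 30.1 CPM in 3xTg libraries against 10.8 to 12.9 CPM in WT libraries. Reads that fit both copies make these 2 values uncertain. The share in this window was 26.3% without VehN replicate 3 or WT replicate 3, and 28.9% without VehD replicate 3.

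The start of chromosome 7 had 25 of 76 genes called (32.9%), 3 higher and 22 lower, with 8 core genes. Oscar and Lair1, which encode collagen receptors of myeloid cells and were chosen after their values were seen, differed there in opposite directions. Oscar had 0.0455 to 0.182 CPM in 3xTg libraries against 0.432 to 1.22 CPM in WT libraries, and Lair1 had 14.7 to 22.4 CPM in 3xTg libraries against 9.91 to 12.7 CPM in WT libraries. Ptprh, a receptor tyrosine phosphatase chosen in the same way, had 0.0956 to 0.385 CPM in 3xTg libraries against 0.637 to 1.22 CPM in WT libraries.

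On chromosome 18, the window from 30 to 40 Mb had 30 of 147 genes called (20.4%), 15 higher and 15 lower, and held 12 core genes, more than any other window. It contains the clustered protocadherins, cell surface proteins whose variable exons are chosen neuron by neuron and spliced to shared constant exons. Of 58 tested protocadherins of the clusters 8 rose and 9 fell, against 5.68% and 7.4% of all genes. The median log2 difference was 0.06. Of the 58, 8 belong to the core, which held 157 of the 16369 tested genes. Pcdhga11 had 5.53, 4.7, 4.95 and 5.1 CPM in VehN and 5.8, 6.06, 8.42 and 5.85 CPM in VehD libraries, against 26.3, 25.7, 20.9 and 24.3 CPM in WT libraries. Pcdhga4, chosen after its values were seen like the other 3 below, had 23.5 to 29.4 CPM in 3xTg libraries against 12.3 to 16.5 CPM in WT libraries. The 2 genes lie in the same gamma cluster and differed in opposite directions, by -2.08 and 0.88 on the log2 scale. Pcdhgb6 was lower by 1.31 and Pcdha9 by 0.70 (log2 differences -1.31 and -0.70), and Pcdhb1 was higher by 0.92, each called in all 3 comparisons. Since members share constant exons, how the authors' counting assigned those reads could change these values.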

How the data were processed

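Bulk RNA-seq of the hippocampus was deposited by the authors as whole-number read counts per gene in each of 28 libraries, with 24062 genes. The submitters' processing notes name STAR, Subread, featureCounts and the mm10 build, with no versions used here. The labels' protocols describe a stranded poly(A) library kit; the sources used here do not say whether the counting used strand, so a gene and its antisense partner may share reads. The members and gene lists were chosen with earlier results of these data known.

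The counts were scaled by TMM in edgeR 4.0.16 (R 4.3.3), filtered with filterByExpr (16369 genes kept, 7693 removed) and fitted with its quasi-likelihood test, with 1 coefficient for each of 7 groups and all 28 libraries. A gene was called at a Benjamini-Hochberg adjusted p under 0.05. CPM values are counts per 1000000 of the TMM-scaled library size. The rule for named genes took, from called genes whose mean log2 CPM was 0 or more, the 15 that rose most and the 15 that fell most, the 10 smallest p-values, up to 4 members of each list by p, and 10 fixed genes; others are said to be chosen after their values were seen. The contrasts of NAVI or DQ minus vehicle and the GC alternative were added after the data were seen. Alternatives used DESeq2 1.42.0, limma 3.58.1, other scalings and filters, tissue scores as covariates and leaving out libraries. Replicate numbers do not pair the samples: the correlation of same-numbered libraries ran from -0.384 to 0.463. Replicates differed by more than counting noise (chi-square per degree of freedom of at least 12.76). On simulated counts for the vehicle comparison (16263 genes), the test recovered 28% of genes changed 1.25-fold, 66% at 1.5-fold, 78% at 2-fold and 96% at 4-fold. Of its calls there 5.63% were false. The simulated libraries were independent and had no differences in tissue content or GC trend. These figures therefore do not give the share of false calls in the real libraries. Some genes of the lists are counted with them but not reported here by name.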

Additional observations from a re-analysis of the deposited data

Results flagged for a closer look

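In 26 of 474 sets of 4 libraries (5.49%), 1 library lay far from the other 3 of its group; chance flags about 1 in 20 such sets. In the VehN group these were Aldh1l2 (19.2 CPM), Lamp5 (41.9 CPM) and Serpinf2 (4.77 CPM) in library 1; 4933409K07Rik (0.0191 CPM), E2f1 (5.99 CPM) and Igfbp5 (299 CPM) in library 3; and Cxcl10 (5.43 CPM) and Usp18 (9.35 CPM) in library 4. In the VehD group they were Kcnc4 (51 CPM) in library 1, Gm10548 (0.109 CPM) and Gm8801 (1.2 CPM) in library 2, Lamp5 (63.8 CPM), Pcdhga11 (8.42 CPM), Pglyrp1 (0.887 CPM) and Wfs1 (78.6 CPM) in library 3, and Ly6c1 (32.2 CPM) in library 4. In the WT group they were Cd79a (5.98 CPM) and Cd79b (8.59 CPM) in library 1, Mcm4 (18.1 CPM), Stx1a (70.6 CPM) and Vcan (26 CPM) in library 2, and Cdkn2a (0.116 CPM), Cox7a2 (192 CPM), Gm1976 (20 CPM), Igfbp5 (237 CPM) and Tgm1 (0.637 CPM) in library 4.

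For 23 of 157 named genes the difference between 3xTg and WT with NAVI differed from that with vehicle (edgeR's quasi-likelihood test of the interaction, adjusted p under 0.05 for each), against 10.6% of all tested genes; most of the named genes were chosen for their difference with vehicle, so their share is a description. The change, NAVI minus vehicle, was positive on the log2 scale for 20 of them. Among neuronal and synaptic genes it was 1.02 for Kcnj4, 1.01 for Cort, 0.91 for Stx1a, 0.90 for Kcnh3, 0.78 for Grin2d, 0.59 for Nrgn, 0.55 for Dlg4, 0.35 for Unc13a and 0.27 for Nlgn2. It was 0.43 for the tau kinase Mark2, 1.11 for Cldn5 and 1.02 for Cspg4. For ribosomal and respiratory genes it was 0.53 for Rpl37 and 0.64 for Uqcrq. Of the others, it was 0.33 for Abcg1, 0.40 for Cyp46a1, 0.35 for Cdkn2d, 0.89 for Psmb10, 0.97 for D630041G03Rik and 2.93 for Gm8801. It was negative for Canx (-0.31), Ide (-0.28) and Soat1 (-0.30). The mean GC slope was 0.15 in 3xTg and -0.06 in WT libraries with NAVI, and its part in these differences was not tested.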

How the results depend on the processing

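The 2142 genes called with vehicle became 623 with VehD alone, 1118 with only the libraries of the comparison and 3961 without the libraries of high thalamus score, and 873 to 3482 when 1 library was left out. The 979 genes called with NAVI became 1641 by DESeq2, 1603 by limma-voom, 535 with only their own libraries and 375 to 1920 without 1 library. The 500 genes called with DQ became 1545 by limma-voom and 263 to 632 without 1 library. The 0 genes between VehD and VehN became 2 by DESeq2 and 0 to 1 without 1 library. The 182 called members over all lists became 95 with VehD alone and 108 to 217 without 1 library. The 44.7% called at the start of chromosome 17 became 28.9% with VehD alone and 26.3% to 47.4% without 1 library. The cause of these changes was not tested. Leaving out libraries also lowers the number of samples, and the vehicle count rose in some of those fits and fell in others. Apoe changed sign without the libraries of high thalamus score (-0.10), and Cd79a (0.19) and Cd79b (0.54) without WT replicate 1; over the fits without 1 library these 2 ran from -3.46 to 0.19 and from -3.05 to 0.54. Of 155 called named genes, 33 lost the call after removal of the GC trend, 45 with VehD alone, 34 without WT replicate 1 and 38 without WT replicate 4; 0 were lost by DESeq2 or with RLE scaling. With the replicate number as a block, though the numbers do not pair the samples, 3283 genes were called with vehicle and 1884 with NAVI. Depth limits the genes of few counts, such as those of lymphocytes.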
